A study of Mus musculus with 6 samples.

Results

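The subject is the MHC class II pathway in mouse LT-HSCs, long-term hematopoietic stem cells, which sustain blood formation for life. The 10 genes were chosen by symbol from the 47561 rows of each count table: H2-Aa, H2-Ab1, H2-Eb1, H2-DMa, H2-DMb1, Cd74, Ciita, Rfx5, Rfxank and Rfxap. All 10 were present and all 10 passed the filter on low counts. RNA was sequenced from LT-HSCs sorted from bone marrow of mice knocked out (KO) for Piezo1, which encodes a cation channel opened by mechanical force, and from control mice labelled WT, with 3 libraries per group. Titles were used to assign groups, because in KO replicates 2 and 3 the genotype field carries a different Piezo number. The labels give no strain, age, sex, Cre driver or deleted exon, and they do not say that the libraries of a group came from separate mice, so the spread behind each p-value is that between these libraries and may be technical.

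MHC class II molecules are surface heterodimers of an alpha and a beta chain that show peptides from the endocytic route to CD4+ T cells. The invariant chain Cd74 escorts new heterodimers and blocks their groove, and the H2-DM heterodimer helps exchange the remaining invariant chain fragment for peptide. Transcription of these genes depends on the RFX complex bound to the X box of their promoters and on the co-activator Ciita, which is itself induced by interferon gamma, with Irf1 among its activators. High class II expression is best known from B cells, dendritic cells and macrophages, and mouse blood stem and progenitor cells are also known to carry class II molecules.

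The class II genes of the list lie together on chromosome 17 (GENCODE M21 models, GRCm38), from the start of H2-DMa at 34119541 to the end of H2-Eb1 at 34316674. RefSeq's promoter table (GRCm38.p6) held windows for H2-Aa, H2-Eb1, H2-DMa, H2-DMb1, Rfx5 and Rfxank, and none for H2-Ab1, Cd74, Ciita or Rfxap. The 3 windows printed here are those in which the core letters of the X box, GNAAC, were followed on one strand by the Y box letters ATTGG with starts 25 to 45 bases apart. Each is the 250 bases before the annotated start, 5′ to 3′ on the gene's strand, with the 2 boxes in capitals. H2-Aa is at chr17:34287824-34288073 on the minus strand, H2-Eb1 at chr17:34305617-34305866 and H2-DMb1 at chr17:34152941-34153190, both on the plus strand.
H2-Aa: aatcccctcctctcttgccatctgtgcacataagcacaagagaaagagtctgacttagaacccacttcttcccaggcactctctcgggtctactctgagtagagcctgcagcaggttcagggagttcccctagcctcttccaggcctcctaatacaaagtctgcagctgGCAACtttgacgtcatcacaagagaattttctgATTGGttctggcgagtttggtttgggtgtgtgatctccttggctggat
H2-Eb1: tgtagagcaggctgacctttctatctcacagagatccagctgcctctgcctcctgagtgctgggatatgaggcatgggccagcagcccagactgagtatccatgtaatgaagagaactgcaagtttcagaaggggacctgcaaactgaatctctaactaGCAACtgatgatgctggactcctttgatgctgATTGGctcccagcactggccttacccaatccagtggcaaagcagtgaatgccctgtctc
H2-DMb1: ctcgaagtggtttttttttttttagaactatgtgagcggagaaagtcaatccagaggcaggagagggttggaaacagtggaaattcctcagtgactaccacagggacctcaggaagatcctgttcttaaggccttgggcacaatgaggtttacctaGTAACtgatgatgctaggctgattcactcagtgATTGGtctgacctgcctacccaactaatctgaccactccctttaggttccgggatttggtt
The X letters started at position -81 in H2-Aa, -91 in H2-Eb1 and -94 in H2-DMb1, counted from RefSeq's annotated start, and the Y letters followed 33, 32 and 33 bases later. The GENCODE M21 model of H2-DMb1 starts at 34153072, inside its window and before both boxes, so -94 holds for the RefSeq start only. Over 32851 promoter windows of this length, 2.84% held the pair at that spacing on either strand, 79.6% held GNAAC and 33.8% held ATTGG. The letters were settled after these promoters had been read, so a match is a description and not a measured binding site. The windows of H2-DMa, Rfx5 and Rfxank did not hold the pair.

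Total counts per library lay between 59435258 and 64653956. A count of 0 allows up to 3 counts, between 0.0440 and 0.0539 CPM (counts scaled to a library total that TMM, a trimmed mean of log ratios, adjusts), and this covers counting error only. Piezo1, the targeted gene, held 4.28, 7.99 and 9.46 CPM in KO replicates 1, 2 and 3, against 17.0, 7.02 and 24.3 CPM in control replicates 1, 2 and 3. Control replicate 2 thus lay within the KO range, and in edgeR's quasi-likelihood test, KO over control, the log2 fold change came to -1.15 (SE 0.56, adjusted p = 0.508). Groups are named as labelled, and each direction that uses the library labelled control replicate 2 rests on that label. All 12 LT-HSC markers looked at, Kit and Ly6a among them, had counts in all 6 libraries, with summed levels of 1110 to 1395 CPM in KO and 1121 to 1561 CPM in control. The overlapping sums held single markers that separated in opposite directions. Ly6a, which encodes the stem cell antigen Sca-1, had a KO mean of 123 CPM and a control mean of 327 CPM, with all KO libraries below all control libraries (log2 fold change -1.41, edgeR unadjusted p = 0.00829, adjusted p = 0.297). Kit, the stem cell factor receptor gene, had a KO mean of 320 CPM and a control mean of 185 CPM, with all KO libraries above (log2 fold change 0.79, edgeR adjusted p = 0.398), and so did Tek. Procr, which encodes the protein C receptor, had a KO mean of 13.8 CPM and a control mean of 48.7 CPM and overlapped (log2 fold change -1.82, edgeR adjusted p = 0.397), as did the other 8 markers. Granulocyte transcripts stood out in control replicate 3, where 8 such genes summed to 11724 CPM, against 120 to 1155 CPM in KO and 172 and 222 CPM in control replicates 1 and 2. S100a8, S100a9, Camp and Ngp held most of that sum. Prtn3 did not stand out, with 131 CPM there against 155 and 165 CPM in control replicates 1 and 2. Elane and Mpo reached at most 5.07 and 4.37 CPM in any library. The 3 KO libraries held more erythroid transcripts, with 6 genes summing to 5975 to 19479 CPM, against 417 to 3163 CPM in control. The KO libraries also held more megakaryocyte and platelet transcripts, with 6 genes summing to 1671 to 2486 CPM, against 772 to 1041 CPM in control, and Pf4, Itga2b, Gp1bb and Vwf of that list lay above control without overlap. The part of these marker differences in the class II values below was not tested.

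The genes of the class II heterodimers and of the invariant chain averaged lower in KO, while of the RFX genes Rfx5 and Rfxap averaged higher and Rfxank stood at a log2 fold change of -0.03. At an unadjusted p under 0.05 in edgeR, 4 of the 10 genes were lower (H2-Aa, H2-Eb1, H2-Ab1 and H2-DMb1) and 0 higher, where 5.59% of the 16022 genes tested were lower and 5.44% higher. After Benjamini-Hochberg adjustment over all genes tested, 0 of the 10 passed 0.05 in either direction, as did 0% of all genes, while DESeq2 called 1 of the 10 lower and limma-voom 0. The median log2 fold change over the 10 genes was -0.69, beside 0.03 over all genes tested. In 3 of the 10 genes all KO libraries lay below all control libraries and in 1, Rfxap, above them, where 8.76% of all genes tested lay below and 10.7% above. The genes were chosen with earlier results of these libraries known, so these counts are a description.

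**Figure D1:**
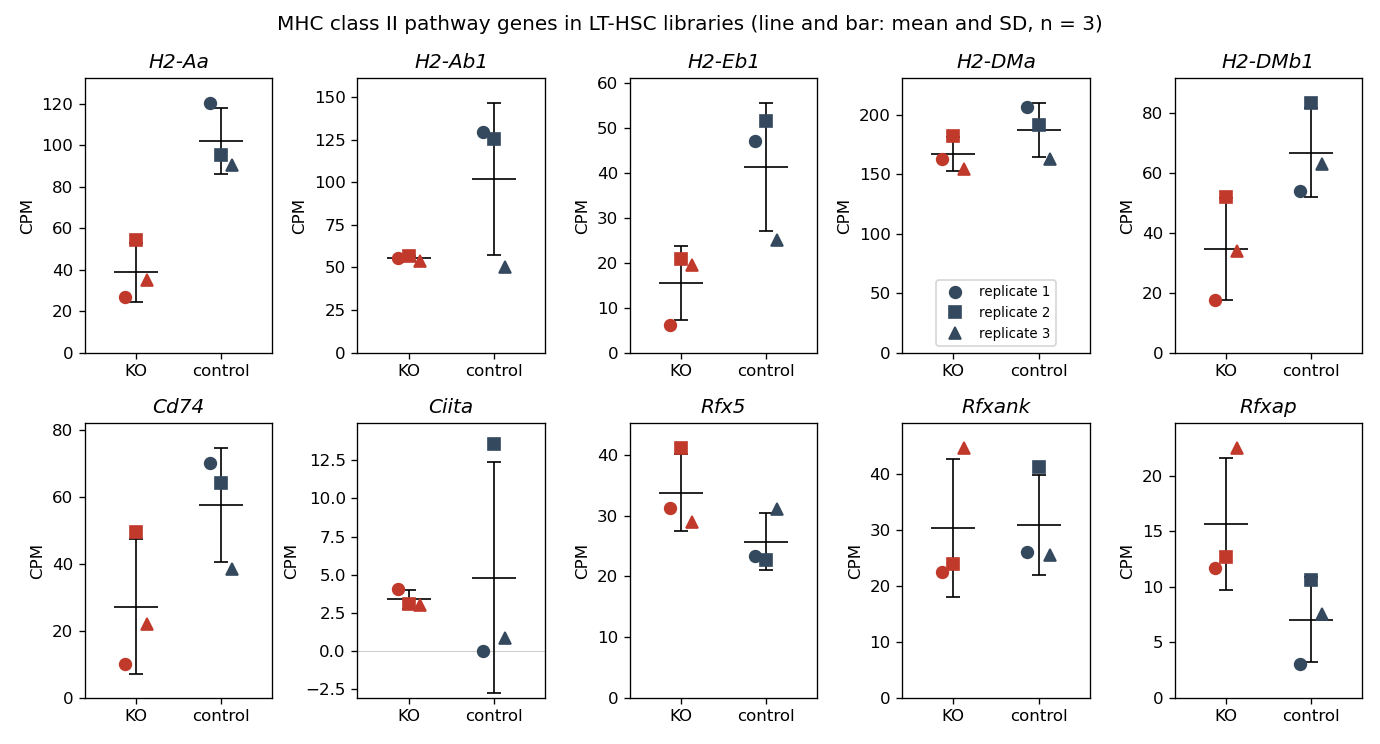
CPM of each gene (vertical axes, linear) in the 3 KO and 3 control libraries, with a marker shape per replicate number, a line at the mean and a bar of 1 SD (n = 3). KO and control points do not overlap for H2-Aa, H2-Eb1, H2-DMb1 and Rfxap. The lower SD bar of Ciita in control runs below 0 because 1 library holds most of its counts.

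H2-Aa encodes the alpha chain of the I-A heterodimer. It held 26.9, 54.2 and 34.9 CPM in KO replicates 1, 2 and 3, against 120, 95.4 and 90.3 CPM in control replicates 1, 2 and 3. All KO libraries lay below all control libraries, and the nearest pair was KO replicate 2 and control replicate 3. The KO mean was 38.7 ± 14.0 CPM and the control mean 102 ± 16.0 CPM (SD, n = 3 each), a log2 fold change of -1.40 (SE 0.29), with an edgeR unadjusted p = 0.00179 and adjusted p = 0.255. DESeq2 called this gene lower over all genes tested (adjusted p = 0.000863), the 1 member it called, where it called 1.92% of genes lower. Over the 14 alternatives the adjusted p of H2-Aa lay between 0.000863 and 0.618, and without DESeq2 the lowest was 0.161.

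H2-Ab1 encodes the beta chain that pairs with H2-Aa. It held 55.8, 56.6 and 53.8 CPM in KO replicates 1, 2 and 3, against 130, 125 and 50.4 CPM in control replicates 1, 2 and 3. The KO libraries were close to each other and control replicate 3 lay below all of them, so the groups overlapped. The log2 fold change was -0.88 (SE 0.35), with an edgeR unadjusted p = 0.0388 and adjusted p = 0.425. The alpha and beta genes of I-A therefore differed in how the control libraries were spread: control replicate 3 held a H2-Ab1 to H2-Aa ratio of CPM of 0.558, against 1.08 and 1.31 in control replicates 1 and 2 and 2.08, 1.04 and 1.54 in KO replicates 1, 2 and 3.

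H2-Eb1 encodes the beta chain of the second heterodimer, I-E. It held 6.09, 20.8 and 19.4 CPM in KO replicates 1, 2 and 3, against 47.0, 51.5 and 24.9 CPM in control replicates 1, 2 and 3. The groups did not overlap, but control replicate 3 lay nearer to KO replicates 2 and 3 than to the other two control libraries. The log2 fold change was -1.41 (SE 0.51), with an edgeR unadjusted p = 0.0273 and adjusted p = 0.394. KO replicate 1 was the lowest library for H2-Aa, H2-Eb1, Cd74 and H2-DMb1, and without it the log2 fold change of H2-Eb1 was -1.05.

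The gene of the invariant chain, Cd74, lies apart from the others on chromosome 18, at 60803848 to 60812652. It held 10.1, 49.6 and 22.1 CPM in KO replicates 1, 2 and 3, against 70.3, 64.3 and 38.4 CPM in control replicates 1, 2 and 3. KO replicate 2 lay above control replicate 3, so the groups overlapped, and the KO libraries spread more widely (coefficient of variation 74.3%) than the control libraries (29.4%). The log2 fold change was -1.08 (SE 0.56), with an edgeR unadjusted p = 0.0913 and adjusted p = 0.532. Leaving out KO replicate 2 gave -1.84 and leaving out KO replicate 1 gave -0.71.

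Together H2-Aa, H2-Ab1, H2-Eb1 and Cd74 summed to 98.8, 181 and 130 CPM in KO replicates 1, 2 and 3, against 367, 336 and 204 CPM in control replicates 1, 2 and 3. All KO libraries lay below all control libraries, with a KO mean of 137 ± 41.6 CPM and a control mean of 303 ± 86.7 CPM (SD, n = 3 each), which is 2.21-fold higher in control. The log2 ratio of the means, KO over control, was -1.15, and it lay between -1.40 and -0.98 with any 1 library left out. In bulk RNA, fewer class II-expressing cells and less class II RNA per cell cannot be told apart.

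The H2-DM heterodimer, the peptide exchange factor, has an alpha and a beta chain, and neither gene passed after adjustment. H2-DMa, the alpha chain gene, held 163, 183 and 155 CPM in KO replicates 1, 2 and 3, against 207, 192 and 163 CPM in control replicates 1, 2 and 3. These ranges overlapped, and the log2 fold change was -0.17 (SE 0.16, edgeR adjusted p = 0.791). H2-DMb1, a beta chain, held 17.7, 51.9 and 34.0 CPM in KO replicates 1, 2 and 3, against 54.1, 83.4 and 63.2 CPM in control replicates 1, 2 and 3. The groups did not overlap, by a margin of 51.9 against 54.1 CPM, which was lost with library totals only (52.7 against 52.5 CPM), and the log2 fold change was -0.95 (SE 0.39), with an edgeR unadjusted p = 0.0448 and adjusted p = 0.441. Without KO replicate 1 it was -0.66. The ratio of H2-DMb1 to H2-DMa CPM was 0.108, 0.284 and 0.220 in KO replicates 1, 2 and 3, against 0.261, 0.434 and 0.389 in control replicates 1, 2 and 3, and overlapped. H2-DMb1 has a near-identical neighbour, H2-DMb2, and reads may have been split between them, so its own value is uncertain. H2-DMb1 and H2-DMb2 summed to 18.7, 55.1 and 35.6 CPM in KO replicates 1, 2 and 3, against 63.6, 93.3 and 70.7 CPM in control replicates 1, 2 and 3, again with no overlap.

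**Figure D2:**
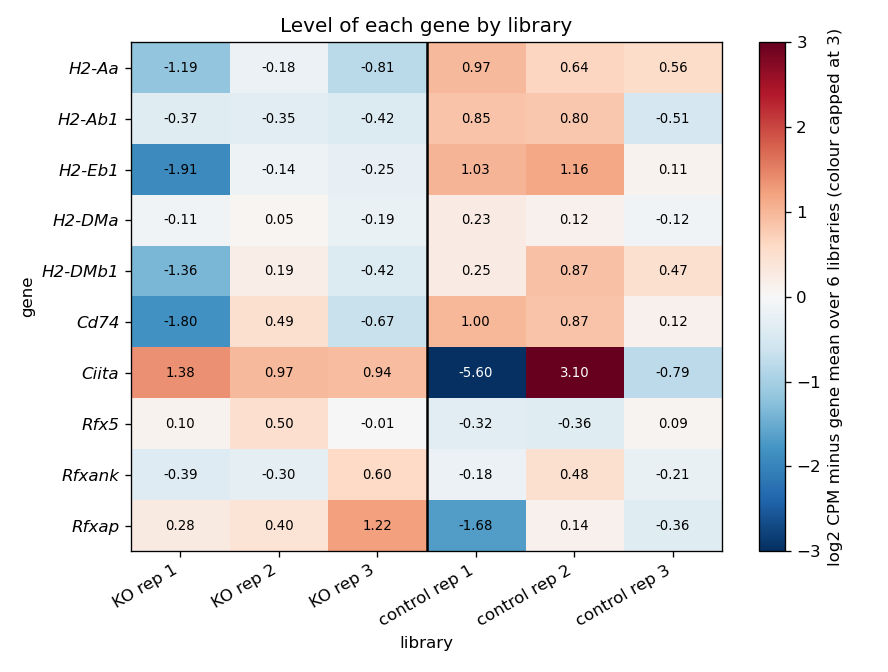
Log2 CPM of each gene (rows) in each library (columns, KO left of the line), as the difference from the gene's mean over the 6 libraries, with the value printed in each cell and the colour capped at 3. KO replicate 1 is the lowest library for H2-Aa, H2-Eb1, H2-DMb1 and Cd74, control replicates 1 and 2 are the highest for H2-Ab1, H2-Eb1 and Cd74, and Ciita does not follow them.

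Ciita, the class II co-activator gene on chromosome 16 (10480059 to 10528418), was the least expressed of the 10 genes and the least even. It held 4.09, 3.07 and 3.00 CPM in KO replicates 1, 2 and 3 (244, 185 and 187 counts), against 0, 13.6 and 0.881 CPM in control replicates 1, 2 and 3 (0, 926 and 49 counts). The KO libraries were close to each other, while control replicate 2 was the highest of all 6 and control replicates 1 and 3 the lowest. The log2 fold change was -0.51 (SE 1.76, edgeR adjusted p = 0.960), and without control replicate 2 it was 2.93. The direction was also positive with limma-voom (2.74) and with the replicate number as a block (1.98), so no direction can be given for Ciita. Control replicate 1, with 0 Ciita counts, held the highest summed level of H2-Aa, H2-Ab1, H2-Eb1 and Cd74, 367 CPM. That library listed 1501 of the 16022 tested genes at 0, against 558 and 1128 in control replicates 2 and 3 and 436 to 743 in KO. Ciita shares exon sequence with Dexi on the opposite strand, and with no strand stated their reads cannot be told apart. Dexi held 208 to 511 counts in KO and 178 to 386 in control.

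The RFX complex has 3 subunits, of which Rfx5 carries the DNA-binding domain and Rfxank and Rfxap are its partners. Rfx5 and Rfxap lie on chromosome 3 and Rfxank on chromosome 8. Rfxap held 11.7, 12.7 and 22.5 CPM in KO replicates 1, 2 and 3, against 2.99, 10.6 and 7.49 CPM in control replicates 1, 2 and 3. All KO libraries lay above all control libraries, and control replicate 2 was nearest to the KO range. The log2 fold change was 1.15 (SE 0.56), with an edgeR unadjusted p = 0.0757 and adjusted p = 0.506, and leaving out control replicate 1 or KO replicate 3 gave 0.79 each time.

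Rfx5 held 31.3, 41.1 and 29.0 CPM in KO replicates 1, 2 and 3, against 23.4, 22.6 and 31.1 CPM in control replicates 1, 2 and 3. Control replicate 3 lay within the KO range, and the log2 fold change was 0.40 (SE 0.26, edgeR adjusted p = 0.653). Exons of Rfx5 overlap another gene on the opposite strand, so their reads cannot be told apart without strand. Rfxank held 22.5, 24.0 and 44.6 CPM in KO replicates 1, 2 and 3, against 26.1, 41.2 and 25.5 CPM in control replicates 1, 2 and 3. One library of each group stood apart from its other two libraries, and the log2 fold change of -0.03 (SE 0.36, edgeR adjusted p = 0.992) became positive under 4 alternatives. Exons of Rfxank overlap Nr2c2ap on the opposite strand, for which the KO mean was 25.6 ± 3.84 CPM and the control mean 54.3 ± 10.2 CPM (SD, n = 3 each), and reads of these genes cannot be told apart without strand. The 3 subunits summed to 65.6, 77.8 and 96.2 CPM in KO replicates 1, 2 and 3, against 52.4, 74.5 and 64.1 CPM in control replicates 1, 2 and 3, with overlap.

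**Figure D3:**
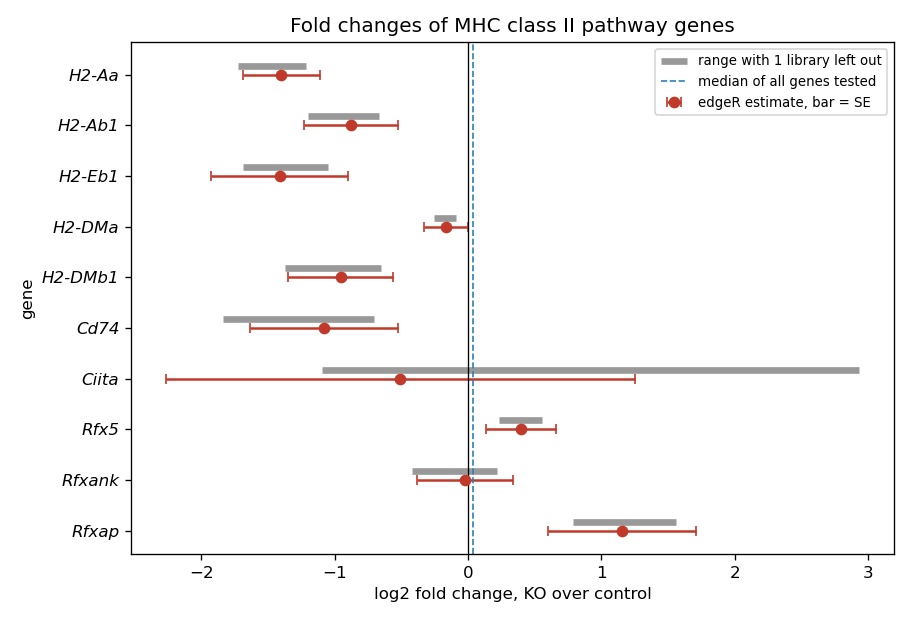
Log2 fold change of KO over control (horizontal axis) for each gene, with its SE (thin bar), the range when any 1 library is left out (thick grey bar) and the median of all genes tested (dashed line, 0.03). The grey bars of the 3 class II chain genes, H2-DMa, H2-DMb1 and Cd74 stay below 0, those of Rfx5 and Rfxap stay above 0, and those of Ciita and Rfxank cross 0.

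Levels per length were compared between genes as CPM per kilobase of annotated exon (GENCODE M21 basic models, which may differ from the models counted). In KO the order of the mean levels was H2-DMa (62.6 ± 5.40), H2-Ab1 (45.7 ± 1.19), H2-Aa (34.3 ± 12.5), H2-DMb1 (24.6 ± 12.2), Cd74 (19.2 ± 14.3), H2-Eb1 (9.25 ± 4.87), Rfxank (8.35 ± 3.40), Rfxap (7.23 ± 2.75), Rfx5 (6.97 ± 1.32) and Ciita (0.412 ± 0.0743; CPM per kilobase, SD, n = 3). In control the order was H2-Aa (90.4 ± 14.2), H2-Ab1 (84.0 ± 36.7), H2-DMa (70.2 ± 8.49), H2-DMb1 (47.7 ± 10.7), Cd74 (40.7 ± 12.0), H2-Eb1 (24.7 ± 8.52), Rfxank (8.50 ± 2.46), Rfx5 (5.30 ± 0.968), Rfxap (3.25 ± 1.77) and Ciita (0.586 ± 0.923; CPM per kilobase, SD, n = 3). Among neighbours in the KO order, H2-DMa did not overlap H2-Ab1, Rfx5 did not overlap Ciita, and all other neighbours overlapped between libraries. Among neighbours in the control order, H2-DMa did not overlap H2-DMb1, H2-Eb1 did not overlap Rfxank, Rfxank did not overlap Rfx5, and all other neighbours overlapped. H2-Eb1 was above Rfxank in every control library and overlapped it in KO. The alpha and beta genes of I-A were thus at or near the top in both groups, and the co-activator at the bottom.

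Other genes of the pathway were taken from lists fixed with earlier results of these libraries known. Of 12 further genes of class II loading and peptide generation, 11 were tested, with a median log2 fold change of -0.36. In this list 3 genes were lower at an unadjusted edgeR p under 0.05 and 0 higher, where 5.59% of all genes tested were lower and 5.44% higher. After adjustment over all genes, 0 of the list passed. The 3 lower genes were H2-DMb2, the second H2-DM beta gene, Ctsl, the protease cathepsin L, and Ctss, cathepsin S. Cathepsin S is a protease that trims the invariant chain in B cells and dendritic cells. H2-DMb2 had a KO mean of 1.96 CPM and a control mean of 8.91 CPM, with a log2 fold change of -2.18 (SE 0.64, edgeR adjusted p = 0.314). Ctss held 5.28, 16.1 and 27.2 CPM in KO replicates 1, 2 and 3, against 29.7, 47.5 and 58.8 CPM in control replicates 1, 2 and 3, with no overlap, and Ctsl had a KO mean of 59.1 CPM and a control mean of 95.0 CPM. DESeq2 called H2-DMb2 and Ctsl lower (adjusted p 0.0393 and 0.0492), where it called 1.92% of genes lower. Ctsb, cathepsin B, the fourth gene of this list by its p, had a KO mean of 139 CPM and a control mean of 211 CPM, and the groups overlapped. The H2-DO genes H2-Oa and H2-Ob encode a heterodimer that restrains H2-DM, and the log2 fold change was -0.34 for H2-Oa (SE 0.35) and -0.29 for H2-Ob (SE 0.38).

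Promoter partners of the RFX complex and Ciita, 10 genes, had a median log2 fold change of 0.34. At an unadjusted edgeR p under 0.05, 2 were higher and 1 lower, where 5.44% of all genes tested were higher and 5.59% lower. NF-Y, the factor that binds the Y box, has 3 subunits. Nfya had a KO mean of 17.6 CPM and a control mean of 9.10 CPM (log2 fold change 0.95, SE 0.34, edgeR adjusted p = 0.392), with no overlap. Nfyc had a KO mean of 44.6 CPM and a control mean of 70.7 CPM (log2 fold change -0.67, SE 0.19, edgeR adjusted p = 0.314), also with no overlap, and Nfyb had a KO mean of 74.6 CPM and a control mean of 73.2 CPM. DESeq2 called 0 genes of this list, where it called 1.64% of genes higher and 1.92% lower. The acetyltransferase gene Kat2b had a KO mean of 28.1 CPM and a control mean of 16.7 CPM (log2 fold change 0.75), and Smarca4, an ATPase of chromatin remodelling, had a KO mean of 90.1 CPM and a control mean of 53.4 CPM (log2 fold change 0.75).

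Of 14 genes that induce or repress Ciita, 12 were tested, with a median log2 fold change of -0.31. At an unadjusted edgeR p under 0.05, 1 was higher and 1 lower, where 5.44% of all genes tested were higher and 5.59% lower. Irf1, an interferon-induced activator of Ciita transcription, held 33.5, 53.8 and 40.5 CPM in KO replicates 1, 2 and 3, against 62.1, 110 and 56.3 CPM in control replicates 1, 2 and 3. The groups did not overlap, and the log2 fold change was -0.84 (SE 0.32, edgeR adjusted p = 0.407). Jak2, the kinase of the interferon gamma receptor among others, held 78.8, 93.8 and 99.8 CPM in KO replicates 1, 2 and 3, against 28.4, 53.2 and 43.4 CPM in control replicates 1, 2 and 3, a log2 fold change of 1.12 (SE 0.26, edgeR adjusted p = 0.255). DESeq2 called Jak2 higher (adjusted p = 0.00787), where it called 1.64% of genes higher. Irf2 and Spi1, the next genes by p, had log2 fold changes of 0.54 and -0.58 and overlapped.

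Of 6 co-stimulatory ligand genes 3 were tested, with a median log2 fold change of -0.79. At an unadjusted edgeR p under 0.05, 0 were higher or lower, where 5.44% of all genes tested were higher and 5.59% lower. Pdcd1lg2, which encodes the inhibitory ligand PD-L2, had a KO mean of 2.74 CPM and a control mean of 8.85 CPM with no overlap (log2 fold change -1.69, SE 0.78, edgeR adjusted p = 0.493). Cd274, which encodes PD-L1, had a KO mean of 25.5 CPM and a control mean of 20.1 CPM and overlapped. Cd86 was at 0 in KO replicate 1 and in control replicate 2, and between 3.50 and 8.99 CPM in the other 4 libraries. Cd40 was at 0 in all 6 libraries and Cd80 had a KO mean of 0.338 CPM and a control mean of 0.00599 CPM.

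**Figure D4:**
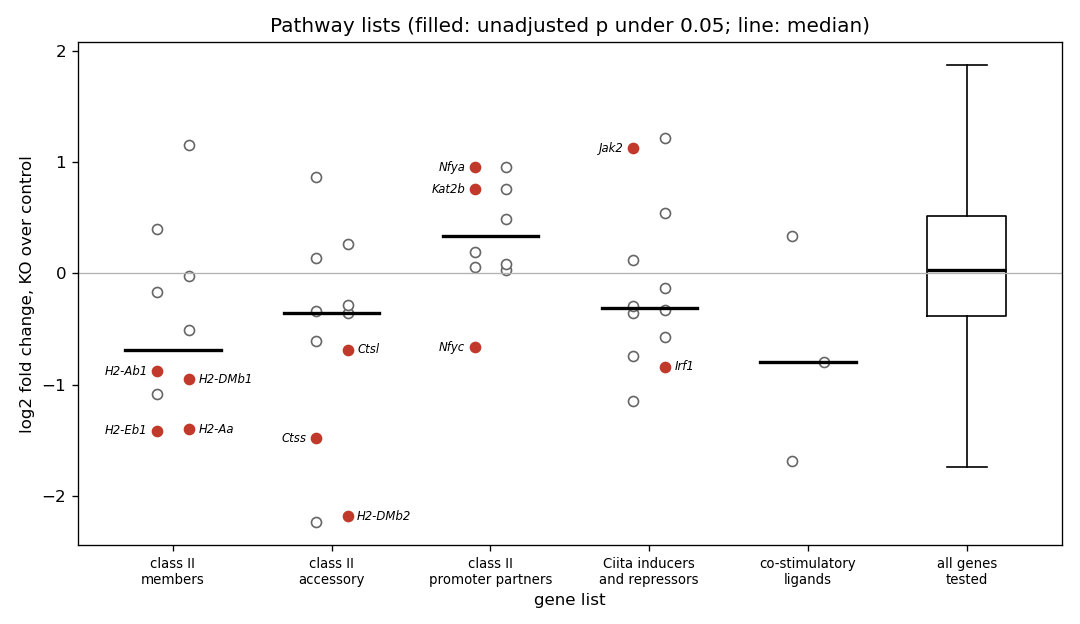
Log2 fold change of KO over control (vertical axis) for the tested genes of each list, with filled and named points at an unadjusted edgeR p under 0.05, a line at each list's median and a box of all genes tested (median and quartiles, whiskers to 1.5 times the interquartile range). The 4 filled genes of the class II set lie between -0.88 and -1.41, and no filled gene passed after adjustment over all genes.

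Markers of other cells that express class II were set beside these values. Of 8 B cell genes, Blk and Cd22 were at 0 in all 6 libraries, Pax5, Ebf1 and Ms4a1 were each counted in 1 KO library only, and Cd79b made up most of the sum. That sum was 33.7 to 36.9 CPM in KO, against 51.9, 86.5 and 31.1 CPM in control replicates 1, 2 and 3, which overlaps. It was highest in control replicates 1 and 2, the 2 libraries that also held the most class II transcript, and its part in the class II difference was not tested. Of 9 dendritic cell genes, Itgax, Xcr1, Siglech and Ccr7 were at 0 in all 6 libraries, and the sum, led by Flt3 and Zbtb46, was 7.55 to 21.9 CPM in KO and 13.8 to 25.6 CPM in control. Clec9a held 0, 2.09 and 2.37 CPM in KO replicates 1, 2 and 3, and at most 0.0586 CPM in control. Batf3 and Cd209a were each counted in 1 KO library only. The 10 monocyte and macrophage genes summed to 315 to 571 CPM in KO and 519 to 1437 CPM in control, an overlap, with Lyz2 the largest. Ly6c2, a monocyte and granulocyte surface antigen gene, was at 227 CPM in control replicate 3. In that list Csf1r had a KO mean of 1.68 CPM and a control mean of 1.21 CPM, and C1qb, a macrophage complement gene, had a KO mean of 9.17 CPM and a control mean of 15.7 CPM with no overlap. Mrc1, the macrophage mannose receptor gene, separated the other way, with a KO mean of 4.35 CPM, led by 10.1 CPM in KO replicate 3, and a control mean of 0.116 CPM (edgeR unadjusted p = 0.00569, adjusted p = 0.277). The other 8 genes of the list overlapped. Cd8a and Klrd1 were at 0 in all 6 libraries, and the 6 T and NK cell genes, of which Nkg7 held most, summed to 247 to 259 CPM in KO and 130 to 208 CPM in control, with no overlap.

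Without control replicate 3, the library with the highest granulocyte sum, the log2 fold changes of the class II genes were -1.48 for H2-Aa, -1.20 for H2-Ab1, -1.67 for H2-Eb1, -1.30 for Cd74 and -0.99 for H2-DMb1. H2-DMa stood at -0.26. With 2 control libraries left, 6 of the 10 genes had all KO libraries below all control libraries, where 16.9% of the 17038 genes then tested did, and 3 were lower at an unadjusted edgeR p under 0.05, where 7.62% of genes were.

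The 5 genes whose profile over the 6 libraries lay nearest to the mean profile of H2-Aa, H2-Ab1, H2-Eb1 and Cd74 were Ripk2, Erap1, Tgtp2, Gimap4 and Emb. They were taken from 9739 genes averaging at least 5 CPM, by the root mean square difference of centred log2 CPM, which was 0.195, 0.216, 0.220, 0.224 and 0.230. Tgtp2, an interferon-inducible GTPase gene, held 139, 214 and 180 CPM in KO replicates 1, 2 and 3, against 648, 543 and 310 CPM in control replicates 1, 2 and 3. Its near-identical copy Tgtp1 had a KO mean of 140 ± 32.2 CPM and a control mean of 423 ± 165 CPM (SD, n = 3 each), and reads may have been split between them. Erap1, a peptide-trimming enzyme of the endoplasmic reticulum, held 25.1, 62.3 and 44.6 CPM in KO replicates 1, 2 and 3, against 88.2, 88.4 and 68.3 CPM in control replicates 1, 2 and 3. Among the class II genes themselves, H2-Aa, H2-Eb1, Cd74 and H2-Ab1 differed from their common profile by 0.258, 0.301, 0.302 and 0.477, and Ciita by 3.14. The 5 genes were picked for the smallest differences, so their lower values follow from that choice. Likeness over 6 libraries from 2 groups is a description.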

How the data were processed

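Per the labels' protocols, TRIZOL-extracted RNA went into TruSeq RNA libraries. The authors deposited 1 table per library, of unnormalized whole-number counts in 47561 rows. HISAT2 2.1 and featureCounts 1.6.4 are among the tools in the submitters' processing notes, beside the build mm10, without roles or settings. Strand and the handling of multiply mapped reads are not given in the sources used here, which bears on overlapping and near-identical genes.

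The 10 genes and all lists were chosen with earlier results of these data known. The fit used edgeR 4.0.16 in R 4.3.3: filterByExpr by group, TMM scaling, and the quasi-likelihood F test with all 6 libraries. Benjamini-Hochberg adjustment ran over the 16022 genes tested, with a threshold of 0.05. The SE is the absolute log2 fold change divided by the square root of F. CPM are scaled to the TMM-adjusted total. All pairs of libraries differed by more than sampling noise (chi-square per gene 132 or more). Alternatives were other scalings and filters, DESeq2 1.42.0, limma 3.58.1 (voom), the replicate number as a block and each library left out. The edgeR, DESeq2 and limma-voom fits were also run on simulated counts, and the outcome is not reported here.

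Named genes were the 10 members, Piezo1, up to 4 genes of each other list by the smallest unadjusted p, leading or absent markers, and the 5 nearest profiles. H2-Oa, H2-Ob, H2-Ea, H2-Eb2, Nfyb, Csf1r, Mrc1, Procr, Tek, Vwf, Cd40, Cd80, Tgtp1, and the genes that overlap Ciita and Rfxank were added after their values were seen. So were Ngp, Prtn3, Elane, Mpo, Clec9a, Batf3 and Cd209a. Some genes counted in the lists are not reported here by name. Promoter windows are RefSeq's (GRCm38.p6), of the same assembly as mm10, and motifs were searched on both strands.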

Additional observations from a re-analysis of the deposited data

How the results depend on the processing

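The 10 genes were refitted under 14 alternatives, 13 for Ciita, which the filter of 5 CPM in 3 libraries removed. H2-Aa, H2-Ab1, H2-Eb1, H2-DMa, H2-DMb1 and Cd74 had negative log2 fold changes in all 14, and Rfx5 and Rfxap positive ones. Rfxank turned to 0.017 with library totals only, and lay between -0.42 and 0.21 with 1 library left out. Ciita turned to 2.74 with limma-voom and 1.98 with the replicate block, and lay between -1.09 and 2.93 with 1 library left out. Over all genes, 0 passed in either direction in the edgeR fit with TMM, where an unadjusted p under 0.05 was met by 871 genes as higher and 896 as lower. DESeq2 called 244 higher and 286 lower, 1 of them (H2-Aa) among the 10, and the 5 CPM filter gave 1 lower. With 1 library left out, 0 to 1 genes passed as higher, and the unadjusted p was met by 562 to 1339 genes as higher and 573 to 1299 as lower. Of the 10 genes, those lower at an unadjusted p numbered 5 with DESeq2, 5 with the 5 CPM filter, 4 with limma-voom and 3 with the replicate block. They numbered 2 with library totals only and 1 to 4 with 1 library left out. Over all genes, 1224 were lower at that p with DESeq2, 1022 with limma-voom, 762 with the replicate block and 760 with library totals only. Each of these fits held 16022 genes. The 5 CPM filter gave 851 lower of 10914 genes. Members higher at that p numbered 1 with limma-voom, where 1209 of all genes were higher, and 0 to 1 with 1 library left out. The 4 lower genes of the edgeR fit with all 6 libraries became 2 without KO replicate 1, KO replicate 3 or control replicate 1. They became 1 without control replicate 2. Groups without overlap numbered 2 above and 2 below with library totals only, where H2-DMb1 came to overlap and Rfx5 no longer did. With 1 library left out they numbered 1 to 2 above and 3 to 6 below. The 6 below, without control replicate 3, stood beside 16.9% of the 17038 genes then tested. For the other counts of this kind the share over all genes was not computed, so they have no background here. Fewer libraries make overlap less likely. The cause of the other changes was not tested. Same-numbered libraries of the groups deviated from their group means with correlations of 0.0380, 0.0160 and 0.0333, so the labels give only a shared number. Each KO library correlated best with the control library of its own number, but these values were close to 0 and cannot settle whether libraries were paired. With the replicate block the lowest adjusted p over all genes was 0.487, and 0 of the 10 genes passed.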

Other observations

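H2-Ea, the alpha chain gene of I-E, had 0 counts in all 6 libraries, which allows up to 3 counts in each, while its beta chain partner H2-Eb1 had 363 to 1254 counts in KO and 1387 to 3514 in control. Mice of the H-2b haplotype are known to carry a deletion at this gene and to make no I-E alpha transcript, and the labels do not give the strain. H2-Eb2, a further class II beta gene, was counted only in control replicate 2, at 0.220 CPM. These genes were looked at after the values of H2-Eb1 had been seen.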
